A study of Mus musculus with 6 samples.

Results

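Vascular adhesion molecules decide where white blood cells leave the blood. The genes described here are 7 of the 18180 in the count table, taken by symbol: the endothelial selectins Sele and Selp, the selectin ligand Selplg, and the immunoglobulin-type adhesion molecules Vcam1, Icam1, Icam2 and Pecam1. All 7 were found and all 7 passed the filter on low counts. The RNA was from tail skin of mice, sequenced as 6 libraries, 3 in each of 2 groups. Controls were Mettl3fl/fl mice that lacked the Cre (K14creERT2-/-). The cKO-labelled group were Mettl3fl/fl mice that also carried K14creERT2 on 1 allele (K14creERT2+/-), a Cre recombinase driven by a keratin promoter of basal keratinocytes and active after tamoxifen, so the Cre was not aimed at vessels or blood cells. Both groups carry the floxed Mettl3 alleles. Per the series' design text, mice had tamoxifen for 5 days, and tissue was taken 4 weeks later from spontaneously inflamed tail areas in the Cre group and from normal tail in the controls. The sources used here do not give the strain, age or sex of the mice. Genotype and inflamed tissue went together and cannot be told apart.

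White blood cells leave the blood in steps. Selectins on activated endothelium catch passing cells by sugar-bearing ligands such as PSGL-1, the product of Selplg, and let them roll. Integrins on the white blood cell then bind ICAM-1 and VCAM-1 and hold it fast, and PECAM-1 at the junctions between endothelial cells takes part in its passage through the wall. Sele, Vcam1 and Icam1 are known as genes switched on in endothelium by inflammatory cytokines, whereas Icam2 and Pecam1 are known for steady expression in resting endothelium. P-selectin is stored in Weibel-Palade bodies of endothelium and in platelet granules.

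Library totals ran from 35855880 to 37043849 counts. Of 15061 genes tested with edgeR's quasi-likelihood test, 30.8% were higher and 30.6% lower in the cKO-labelled libraries at an adjusted p under 0.05, and the median log2 fold change over all of them was 0.00. A count of members is read against these shares. No label ties a library to an animal. The p-values therefore measure the spread between these libraries only, and that spread may be technical. Mettl3 itself was higher in the cKO-labelled libraries (from 10.7 ± 1.41 to 14.9 ± 0.831 CPM, SD, n = 3). The label names a loss of Mettl3, but only in cells with the keratin-driven Cre. Counts per whole gene in bulk skin cannot show whether it was lost there. Directions are given here for the libraries as they are labelled. CPM are counts per 1e+06 counts of the TMM-scaled library, and FPKM are the deposited values per kilobase of gene. In bulk tissue, fewer cells of a type and less RNA per cell cannot be told apart.

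All 7 adhesion genes rose in the cKO-labelled libraries. Of all tested genes 30.8% rose, and 61.4% changed in either direction. The selectins rose most, Sele 4.18-fold and Selp 3.91-fold, followed by Vcam1 at 2.86-fold and Selplg at 1.96-fold. Icam1, Icam2 and Pecam1 rose less, 1.49-fold, 1.48-fold and 1.24-fold. The 3 genes that rose at least 2-fold were Sele, Selp and Vcam1, and 5.98% of all tested genes did so. For each of the 7 the lowest library labelled cKO lay above the highest control library, which held for 32.6% of tested genes. The members' median log2 fold change was 0.97.

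**Figure D1:**
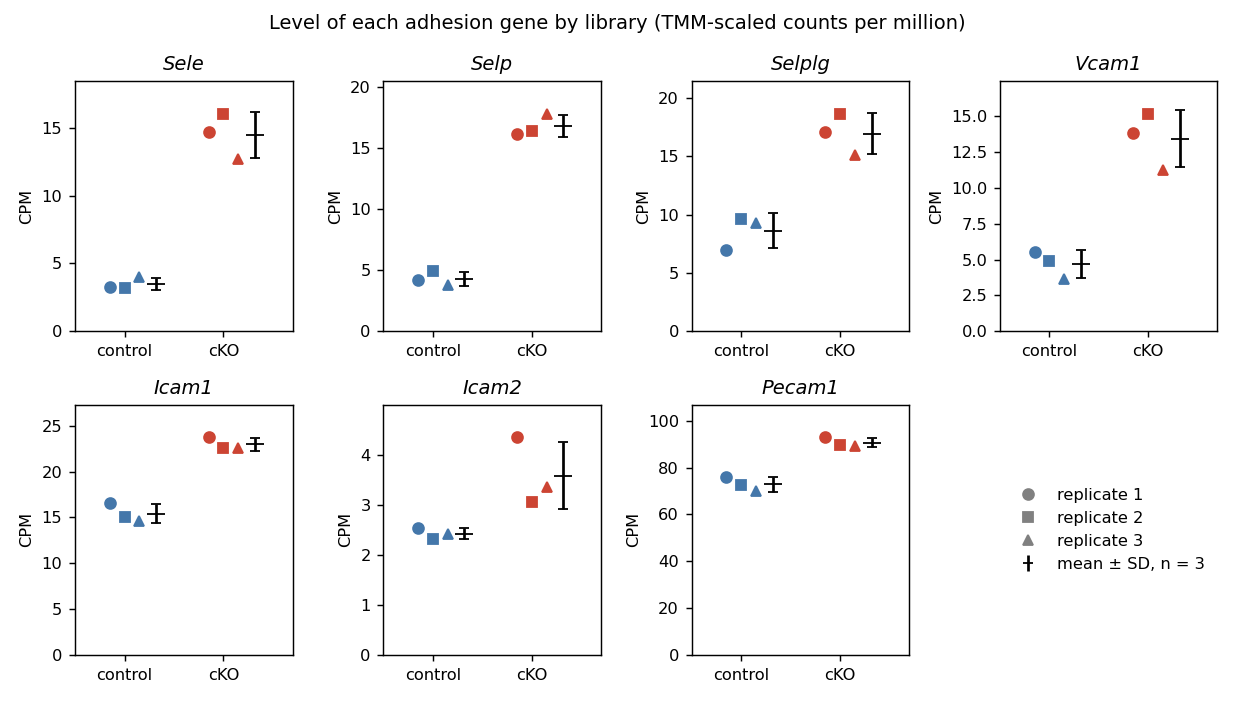
CPM of each adhesion gene in the 3 control (blue) and 3 cKO-labelled (red) libraries, with symbols for the replicate number and bars for mean ± SD (n = 3), each vertical axis starting at 0. No panel shows overlap between groups, and the gap is widest for Sele and Selp and narrowest, relative to the level, for Pecam1.

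Sele encodes E-selectin, which is made by activated endothelium. Its level was 3.24, 3.15 and 3.97 CPM in control replicates 1 to 3 and 14.7, 16.0 and 12.7 CPM in the cKO-labelled libraries. The groups lay far apart, and the control libraries held 378 counts in all against 1575. The mean went from 3.46 ± 0.451 to 14.5 ± 1.69 CPM (SD, n = 3; log2 fold change 2.06, SE 0.14, edgeR adjusted p = 4.47e-22). The signed log2 fold change of Sele was above that of 98.2% of tested genes, with genes that fell counted as below it.

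Selp encodes P-selectin, which reaches the endothelial surface within minutes from stores and is also made anew. It stood at 4.17, 4.91 and 3.78 CPM in control and at 16.1, 16.4 and 17.8 CPM in the cKO-labelled libraries. Here replicate 3 was the highest of the cKO-labelled libraries, while for Sele, Selplg, Vcam1, Icam1 and Pecam1 replicate 3 was the lowest of them. The mean rose from 4.29 ± 0.573 to 16.8 ± 0.895 CPM (SD, n = 3; log2 fold change 1.97, SE 0.13, edgeR adjusted p = 2.98e-23). Platelets are the other known source of Selp transcripts, and among platelet genes 3 of 6 tested, of 10 listed, were lower and the other 3 did not pass the test, and their summed level was 83.9 to 89.4 CPM in control and 67.6 to 70.0 CPM in the cKO-labelled libraries. Pf4, platelet factor 4, fell from 57.5 ± 0.424 to 46.9 ± 1.98 CPM, and Gp1bb, a platelet receptor subunit, fell from 21.4 ± 2.06 to 14.8 ± 0.50 CPM (SD, n = 3). Gp6, a collagen receptor of platelets, had at most 1 count in any library, and the platelet genes Gp9 and Gp1ba had at most 6 and 13. The sum was mostly Pf4 and Gp1bb, so it is a weak measure of platelets. A platelet part in the Selp difference was not tested.

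Sele and Selp lie close together on 1 chromosome. The next protein-coding gene past Selp, F5 (coagulation factor V), stood at 8.35 and 8.78 CPM and did not pass the test (adjusted p = 0.644). On the Sele side, Mettl18 rose by a log2 fold change of 0.54 (adjusted p = 0.0147), a smaller value than the 2.06 of Sele.

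Sele and Icam1 are textbook targets of cytokine signalling. Promoter windows of Sele, Selp and Icam1, 300 bases from 250 before to 50 after the annotated start, are shown as a description. They are RefSeq sequences (GRCm38.p6, plus strand, another build than the mm39 of the counts) from a promoter table in which 3 of the 7 members were matched. Capitals mark an NF-kB-type motif (GGNNATTCC), the AP-1 motif (TGACTCA) and a TATA motif (TATAAA), each searched on both strands. The motif letters were chosen after the windows had been read.
Sele, chr1:164047984-164048283: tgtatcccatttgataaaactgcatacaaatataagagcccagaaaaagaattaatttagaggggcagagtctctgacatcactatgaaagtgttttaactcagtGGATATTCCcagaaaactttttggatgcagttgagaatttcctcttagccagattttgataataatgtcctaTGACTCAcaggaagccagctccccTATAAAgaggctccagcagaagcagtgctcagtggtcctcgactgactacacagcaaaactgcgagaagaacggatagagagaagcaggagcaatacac
Selp, chr1:164115014-164115313: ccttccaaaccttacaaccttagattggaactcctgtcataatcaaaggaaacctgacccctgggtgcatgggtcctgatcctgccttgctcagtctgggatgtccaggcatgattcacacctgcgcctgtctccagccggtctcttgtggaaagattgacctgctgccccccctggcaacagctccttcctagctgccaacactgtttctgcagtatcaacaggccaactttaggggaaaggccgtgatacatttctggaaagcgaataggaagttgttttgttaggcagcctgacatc
Icam1, chr9:21015690-21015989: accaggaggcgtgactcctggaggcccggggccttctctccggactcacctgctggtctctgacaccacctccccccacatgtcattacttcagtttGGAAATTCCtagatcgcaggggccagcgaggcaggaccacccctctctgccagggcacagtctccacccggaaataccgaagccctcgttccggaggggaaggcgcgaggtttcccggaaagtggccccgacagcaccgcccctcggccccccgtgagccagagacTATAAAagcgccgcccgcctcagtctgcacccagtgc
Of 32851 such windows in the table, 2.8% held the NF-kB-type motif, 5.2% the AP-1 motif and 13.6% the TATA motif. In Sele the NF-kB-type motif began 145 bases, the AP-1 motif 73 bases and the TATA motif 49 bases before the annotated start. In Icam1 the NF-kB-type motif began 153 bases before the start, and the TATA motif at base 14 after it. None of these letter strings was in the Selp window. Because the letters were chosen with the windows in view, the matches in Sele and Icam1 and the absence in Selp may follow from that choice. A relation of the motifs to the unequal rises was not tested. A match is a description of the sequence and no evidence of binding.

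Selplg encodes PSGL-1, the ligand that white blood cells present to all selectins. It stood at 6.95, 9.66 and 9.31 CPM in control and at 17.1, 18.7 and 15.2 CPM in the cKO-labelled libraries. Control replicate 1 was low, and the lowest library labelled cKO was still above every control library. The mean rose from 8.64 ± 1.47 to 17.0 ± 1.75 CPM (SD, n = 3; log2 fold change 0.97, SE 0.11, edgeR adjusted p = 1.11e-11). When the biological variation was instead set by hand (coefficient of variation, BCV, 40%), it did not pass (adjusted p = 0.371).

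General white blood cell markers rose to a like degree. All 9 on the list, among them Ptprc, the common leukocyte antigen CD45, were higher, and their summed level was 135 to 139 CPM in control and 288 to 293 CPM in the cKO-labelled libraries, 2.12 times as high. Set against that sum, Selplg was 6.30% ± 1.14 in control and 5.84% ± 0.626 in the cKO-labelled libraries (SD, n = 3; two-sided exact permutation p = 0.7, where 3 against 3 libraries cannot give less than 0.1), a ratio added after the data were seen. The ranges of this ratio overlapped.

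Vcam1 encodes VCAM-1, which binds the integrin VLA-4 of lymphocytes and monocytes and is made by activated endothelium, some fibroblasts and macrophages. Its level was 5.56, 4.91 and 3.62 CPM in control and 13.8, 15.2 and 11.3 CPM in the cKO-labelled libraries. The spread within each group was wide for counts of this size, 21% of the mean in control where counting alone gives 7.65%, and still far smaller than the distance between groups. The mean rose from 4.70 ± 0.986 to 13.4 ± 1.99 CPM (SD, n = 3; log2 fold change 1.51, SE 0.14, edgeR adjusted p = 1.54e-15). Its neighbour Extl2 fell by 0.38 on the log2 scale (adjusted p = 0.00231).

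Icam1 encodes ICAM-1, the ligand of the beta-2 integrins, which endothelium makes at rest and in larger amounts after cytokines, and which keratinocytes and white blood cells can also make. It stood at 16.5, 15.1 and 14.6 CPM in control and at 23.7, 22.6 and 22.5 CPM in the cKO-labelled libraries. Both groups were tight, with a distance between them several times their spread. The mean rose from 15.4 ± 0.991 to 23.0 ± 0.675 CPM (SD, n = 3; log2 fold change 0.57, SE 0.087, edgeR adjusted p = 2.89e-08). With an assumed BCV of 20% the adjusted p was 0.0694. Its neighbours Icam4 and Icam5, of the same gene family and next to it in gene order, did not pass the test. Icam4 stood at 0.276 and 0.111 CPM (adjusted p = 0.20) and Icam5 at 2.08 and 2.50 CPM (adjusted p = 0.402). Icam4 had at most 15 counts in any library, so its result says little. On the other side of Icam1, Mrpl4 did not pass the test (adjusted p = 0.995). Beyond Mrpl4, S1pr2 rose by a log2 fold change of 0.41 (adjusted p = 1.17e-05).

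Icam2 encodes ICAM-2, a ligand of the same integrins on resting endothelium and platelets. It had the fewest counts of the 7, and stood at 2.53, 2.32 and 2.42 CPM in control and at 4.35, 3.06 and 3.35 CPM in the cKO-labelled libraries. Replicate 1 labelled cKO was high, and the other two lay closer to control. The mean rose from 2.42 ± 0.108 to 3.58 ± 0.677 CPM (SD, n = 3; log2 fold change 0.56, SE 0.23, edgeR adjusted p = 0.0255). Without replicate 1 labelled cKO the log2 fold change was 0.40 (adjusted p = 0.183), so the call depended on that library. Without control replicate 2 the log2 fold change stayed near its full value, at 0.53, but the call was lost (adjusted p = 0.0624). With all libraries and an assumed BCV of 20% the adjusted p was 0.111.

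Pecam1 encodes PECAM-1 (CD31), the common marker of endothelium, also present on platelets and white blood cells. It had 75.9, 72.8 and 69.8 CPM in control and 92.9, 89.6 and 89.3 CPM in the cKO-labelled libraries. The step between groups was small but regular, since the 6 libraries spread little. The mean rose from 72.8 ± 3.03 to 90.6 ± 1.99 CPM (SD, n = 3; log2 fold change 0.32, SE 0.042, edgeR adjusted p = 5.86e-10). With an assumed BCV of 20% the adjusted p was 0.383.

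Under assumed BCVs of 20% and 40%, 4 and 3 of the 7 members were called higher, where 12.2% and 3.04% of all tested genes were. The genes still called at 40% were Sele, Selp and Vcam1 (adjusted p = 0.00129, 0.00246 and 0.0393). For Selp, Vcam1 and Icam1 the GENCODE M21 annotation holds genes on the opposite strand that overlap them. The strand setting of the counting is not given in the sources used here, so reads of these genes and of such partners cannot be told apart.

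Compared per length, Pecam1 was the most abundant of the 7 in both groups and the order of the lower genes differed. In control the mean FPKM ran from Pecam1 at 21.7 ± 0.884 through Icam1 at 5.93 ± 0.376 and Selplg at 3.18 ± 0.546 to Icam2 at 1.55 ± 0.0685, Vcam1 at 1.37 ± 0.287, Selp at 1.24 ± 0.165 and Sele at 1.06 ± 0.139 (SD, n = 3). From Icam2 down to Sele the ranges of neighbours in that order overlapped, although the lowest control library of Icam2 (1.48 FPKM) lay above the highest of Selp (1.42 FPKM) and of Sele (1.22 FPKM). In the cKO-labelled libraries, Pecam1 stood at 27.4 ± 0.581 FPKM, Icam1 at 8.98 ± 0.258, Selplg at 6.35 ± 0.659, Selp at 4.92 ± 0.263, Sele at 4.52 ± 0.529, Vcam1 at 3.98 ± 0.591 and Icam2 at 2.33 ± 0.438. Selp and Sele overlapped, as did Sele and Vcam1, but Icam2 now lay below all 3. Pecam1 made up 60.2% of the summed FPKM of the 7 genes in control and 46.9% in the cKO-labelled libraries, while Sele and Selp together went from the lowest places to 7.73% and 8.41%.

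**Figure D2:**
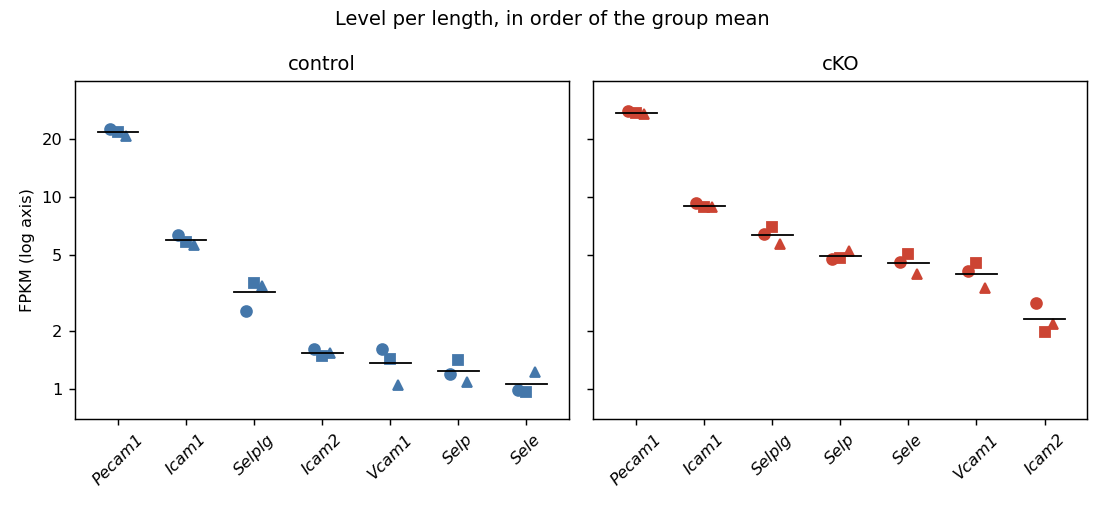
FPKM (log axis) of the 7 genes, ordered by the group mean, in the 3 control libraries (left) and the 3 cKO-labelled libraries (right), with 1 symbol per library (circle, square and triangle for replicates 1 to 3) and a line at the mean. Pecam1 leads in both groups, and Icam2 moves from the fourth place in control to the last.

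Ratios between 2 members within a library do not depend on how libraries are scaled. Sele per Pecam1 went from 0.0492 ± 0.00829 to 0.165 ± 0.0192 in FPKM, and Selp per Pecam1 from 0.0571 ± 0.00725 to 0.18 ± 0.0125 (SD, n = 3). Ratios whose ranges overlapped between groups included Sele per Selp (0.877 ± 0.222 and 0.924 ± 0.147), Icam1 per Icam2 (3.83 ± 0.164 and 3.93 ± 0.592) and Icam2 per Pecam1 (0.0716 ± 0.00309 and 0.0848 ± 0.0141). The selectins thus kept a ratio near 1 to each other in both groups while both moved away from Pecam1.

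General markers of blood vessel endothelium were moderately higher in the cKO-labelled libraries. Of 18 listed, none of them a member, 13 rose and 5 did not pass the test, with a median log2 fold change of 0.44. Their summed level was 387 to 399 CPM in control and 517 to 528 CPM in the cKO-labelled libraries. Plvap, a protein of endothelial diaphragms, rose from 69.3 ± 1.38 to 91.7 ± 2.02 CPM, and Eng, a co-receptor for TGF-beta family ligands, rose from 37.7 ± 1.6 to 53.1 ± 3.17 CPM (SD, n = 3). Of 2 venular markers in the table, Vwf, von Willebrand factor, rose from 52.8 ± 2.03 to 69.1 ± 3.82 CPM, and Nr2f2, a transcription factor of veins, stood at 12.5 ± 0.53 and 12.2 ± 1.10 CPM (adjusted p = 0.798). Lymphatic markers had 2 higher and 2 lower of 6.

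Each member was therefore set against the summed endothelial markers of its own library. Sele was 0.838%, 0.808% and 0.996% of that sum in control and 2.78%, 3.09% and 2.45% in the cKO-labelled libraries. Selp went from 1.09% ± 0.156 to 3.22% ± 0.199, and Vcam1 from 1.2% ± 0.270 to 2.57% ± 0.374 (SD, n = 3). These 3 stayed 3.15, 2.96 and 2.17 times as high as in control relative to the endothelial sum, with no overlap between groups. Selplg was 1.49 times and Icam1 1.12 times as high, also without overlap, and for Icam1 the step was from 3.94% ± 0.310 to 4.4% ± 0.0820. The two-sided exact permutation p was 0.1 for each of these 5, the smallest that 3 against 3 libraries can give.

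Icam2 and Pecam1 had about the same ratio in both groups. Icam2 was 0.619% ± 0.0324 of the endothelial sum in control and 0.687% ± 0.122 in the cKO-labelled libraries (exact permutation p = 0.7), and Pecam1 was 18.6% ± 1.07 and 17.4% ± 0.194 (SD, n = 3; exact permutation p = 0.2). The ranges overlapped for both genes. Against the venular markers the ranges of Icam1 overlapped too (exact permutation p = 0.2). The endothelial sum itself rose, so these ratios say how the members moved relative to other endothelial transcripts and not how much each cell held.

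**Figure D3:**
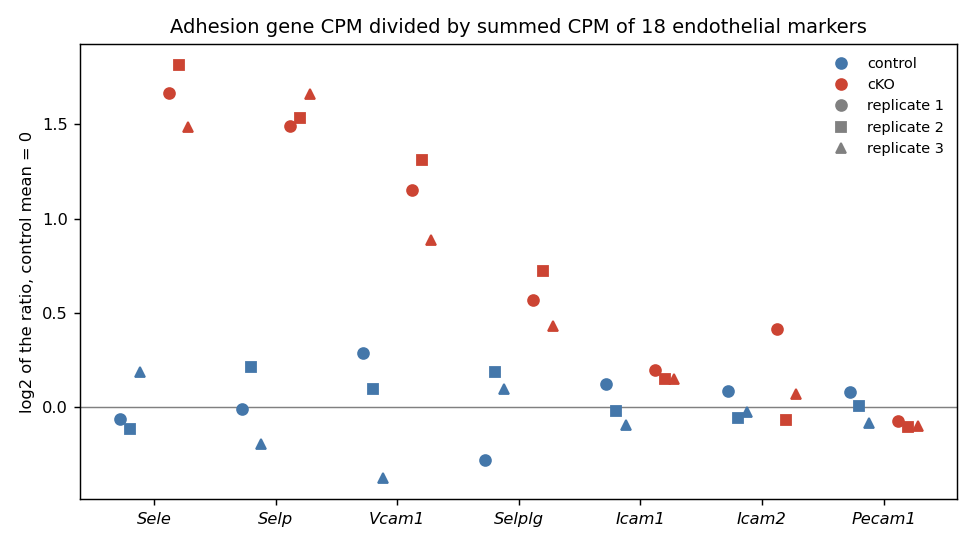
Each member's CPM divided by the summed CPM of 18 endothelial markers in the same library, as log2 with the control mean at 0, for 3 control (blue) and 3 cKO-labelled (red) libraries. Sele, Selp and Vcam1 stand clear of control, Selplg and Icam1 stand nearer to it, and Icam2 and Pecam1 overlap with control.

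Markers of other cell types that can hold these transcripts moved as well, and their part in the members' differences was not tested. The 4 neutrophil markers tested, of 8 listed, all rose, and the summed level of the list was 6.26 to 8.09 CPM in control and 24.1 to 24.4 CPM in the cKO-labelled libraries. That sum was mostly Csf3r and Cxcr2. The untested Ly6g, Camp, Ltf and Ngp had at most 22 counts in any library of either group. The 6 monocyte and macrophage markers all rose, with sums of 666 to 682 and 975 to 998 CPM, and 5 of 6 T cell markers rose, with sums of 3.21 to 4.86 and 12 to 13.6 CPM. Among mural cell markers, the pericytes and smooth muscle around vessels, 5 of 9 rose and 3 fell, and the sum was 625 to 646 CPM in control and 593 to 605 CPM in the cKO-labelled libraries. Fibroblast markers had 5 of 6 higher with sums of 11084 to 11187 and 16136 to 16179 CPM, and keratinocyte markers 6 of 8 higher and 2 lower with sums of 34385 to 34680 and 63257 to 63925 CPM. Most of the rise in the keratinocyte sum was Krt1, which went from 2170 ± 15.9 to 20487 ± 141 CPM (SD, n = 3). All 5 red blood cell genes fell, from sums of 116 to 129 CPM to 72.4 to 74.0 CPM. Skeletal muscle markers had 2 of 6 higher, with sums of 16.7 to 23.9 and 25.3 to 39.8 CPM.

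**Figure D4:**
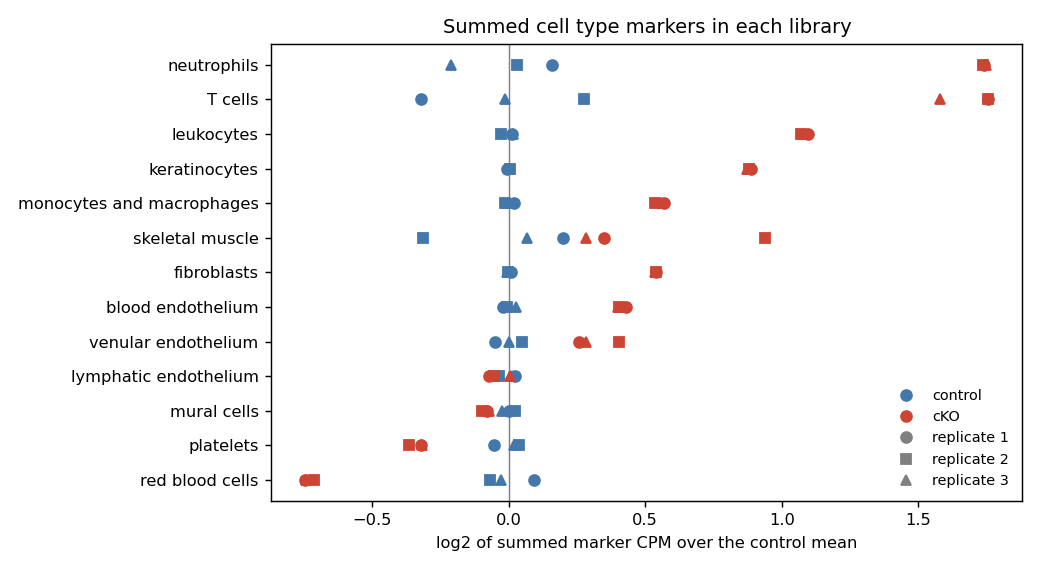
Summed CPM of each cell type's marker list in each library, as log2 over the control mean, for 3 control (blue) and 3 cKO-labelled (red) libraries, with symbols for the replicate number. Neutrophil, T cell and general leukocyte sums lie highest in the cKO-labelled libraries, blood endothelium is moderately higher, and platelet and red blood cell sums are lower. The neutrophil sum was mostly Csf3r and Cxcr2, and the platelet sum mostly Pf4 and Gp1bb.

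The other genes of leukocyte adhesion were described by 11 lists. Of 127 tested genes in these lists, 81 were higher and 15 lower in the cKO-labelled libraries, against 30.8% and 30.6% of all tested genes, and the median log2 fold change was 0.31. Among genes that build selectin ligands, 12 of 16 rose and the other 4 did not pass the test (median 0.38). Chst2, a sulfotransferase that modifies selectin ligands, rose from 4.10 ± 0.675 to 10.2 ± 1.11 CPM, and Fut4, a fucosyltransferase that helps make the sugar bound by selectins, rose from 1.03 ± 0.315 to 2.09 ± 0.463 CPM (SD, n = 3; edgeR adjusted p = 0.0072, and 0.0626 without replicate 1 labelled cKO). Fut7, the fucosyltransferase best known for this step, stayed low, 1, 7 and 7 counts against 13, 11 and 10, and did not pass the test (adjusted p = 0.191). Of selectin partners, 6 of 9 rose and 2 fell: Cd24a, a mucin-like P-selectin ligand, rose from 351 ± 4.43 to 596 ± 7.47 CPM, while Podxl2, a sialomucin that selectins can bind, fell from 15.4 ± 0.522 to 10.3 ± 1.23 CPM and Cd34, a sialomucin of endothelium and of hair follicle cells, fell from 177 ± 1.6 to 162 ± 1.67 CPM.

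Leukocyte integrins, among them those that bind ICAM and VCAM molecules, and integrin activators had 13 of 16 higher. The other 3 did not pass the test (median 0.51). Itgax, the alpha chain of a beta-2 integrin of dendritic cells and macrophages, rose from 2.18 ± 0.853 to 7.05 ± 1.03 CPM, and Fyb, an adaptor for integrin activation in white blood cells, rose from 7.62 ± 0.685 to 16.0 ± 1.16 CPM (SD, n = 3). The beta-2 chain Itgb2 and its alpha chains Itgal and Itgam had log2 fold changes of 0.62, 0.84 and 0.86. Itga4, the alpha chain of the VCAM-1 receptor VLA-4, had 0.45 (adjusted p = 0.00567), a smaller value than the 1.51 of Vcam1 itself.

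Genes of junctions and transmigration had 9 of 13 higher and 3 lower (median 0.25). The VE-cadherin gene Cdh5 rose from 23.8 ± 2.10 to 34.7 ± 0.926 CPM and Sirpa, a receptor on myeloid cells for CD47, from 50.9 ± 1.97 to 79.0 ± 1 CPM. Cd99, whose product acts after PECAM-1 in the passage between endothelial cells, fell from 50.7 ± 2.81 to 37.1 ± 2.22 CPM, and its relative Cd99l2 fell from 42.1 ± 4.29 to 35.8 ± 2.14 CPM (SD, n = 3), with overlap between the libraries of the 2 groups. Other immunoglobulin-type adhesion genes had 2 of 7 higher and 1 lower (median -0.09): Mcam rose by a log2 fold change of 0.23, L1cam by 0.21 (adjusted p = 0.0158, and 0.172 without replicate 3 labelled cKO and 0.0765 without control replicate 2), and Alcam fell by 0.24.

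Anchors that tie adhesion molecules to the cytoskeleton went both ways, 6 higher and 4 lower of 11. Moesin (Msn) and the small GTPase gene Rhog rose by log2 fold changes of 0.39 and 0.35. Ezrin (Ezr) fell from 380 ± 3.24 to 317 ± 4.82 CPM, and Arhgef26, an exchange factor that works with ICAM-1, fell from 6.08 ± 0.955 to 3.13 ± 0.824 CPM (SD, n = 3). Sheddases, which cut adhesion molecules off the surface, and their inhibitors had 4 of 7 higher and 1 lower: Mmp9 rose from 3.24 ± 0.946 to 23.5 ± 0.829 CPM, Adam8 from 5.99 ± 0.121 to 28.8 ± 0.143 CPM, and the inhibitor Timp3 fell from 267 ± 3.70 to 171 ± 2.71 CPM. Genes of Weibel-Palade bodies, the stores of P-selectin, had 5 of 12 higher and 1 lower (median 0.22). Of these, Plat, tissue plasminogen activator, rose from 13.0 ± 0.638 to 26.2 ± 0.425 CPM, Hps6, a subunit of a complex needed to form such organelles, from 5.69 ± 0.90 to 9.92 ± 1.04 CPM, and Rab3d, a GTPase of secretory granules, fell from 143 ± 4.03 to 118 ± 6.03 CPM. Selp at a log2 fold change of 1.97 lay above every tested gene of that list.

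Cytokines known to induce some or all of Sele, Vcam1 and Icam1 had 8 of 9 tested higher (median 2.44). Il1b, interleukin-1 beta, went from 74, 52 and 64 counts to 1684, 1776 and 1566 counts (26.5-fold). Osm, oncostatin M, went from 3, 2 and 4 counts to 93, 59 and 64 (log2 fold change 4.54, SE 0.55, edgeR adjusted p = 4.30e-11), near the limit of detection in control. Tnf, the classic inducer of E-selectin, had a log2 fold change of 1.37 (adjusted p = 0.000158). Receptors of these cytokines had 10 of 13 higher (median 0.31), led by Il1rl1, the IL-33 receptor, from 7.59 ± 0.311 to 23.2 ± 1.13 CPM, and Il4ra from 46.1 ± 1.18 to 115 ± 2.90 CPM (SD, n = 3). Among transcriptional regulators 6 of 14 rose and 3 fell (median 0.18): Nfkb2 rose from 16.5 ± 0.529 to 28.2 ± 1.16 CPM and Irf1 from 9.90 ± 0.486 to 16.7 ± 3.77 CPM, while Nfkbia, the NF-kB inhibitor, fell from 101 ± 3.40 to 83.2 ± 0.266 CPM and Atf2 fell from 33.5 ± 1.7 to 27.7 ± 1.57 CPM.

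**Figure D5:**
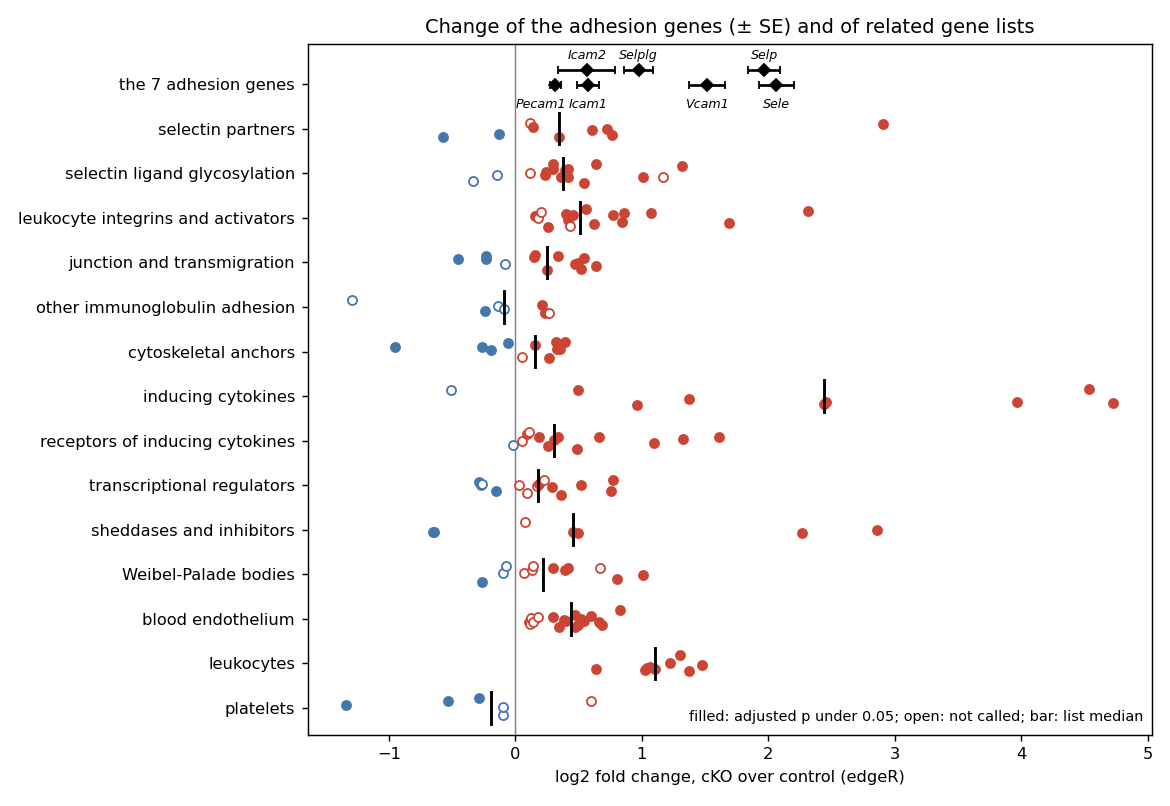
Log2 fold change of the 7 adhesion genes (diamonds with SE) and of every tested gene of the related lists (1 point per gene, filled where the adjusted p was under 0.05, with a bar at the list median). Sele, Selp and Vcam1 lie to the right of all 18 endothelial markers, and Selplg lies close to the leukocyte markers.

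In the pathway sets of the deposited annotation, the members' own set Cell adhesion molecules had 55 of 114 other tested genes higher and 32 lower (median log2 fold change 0.27). The set Leukocyte transendothelial migration had 43 of 98 others higher and 29 lower (median 0.07). The TNF signaling pathway set had 54 of 107 others higher and 24 lower (median 0.18). These medians lay well below the 0.97 of the 7 members, which were themselves chosen with earlier results of these data known.

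Among 213 tested genes of all lists, those whose profile over the 6 libraries came nearest to a member's, by distance between log2 CPM centred on the control mean, were Adam8 for Sele (distance 0.478) and Cd4, the T helper cell marker, for Selp (0.523), Cd3g, a T cell receptor subunit, for Selplg (0.257), Il4ra for Vcam1 (0.601), Lyz2, a lysozyme of macrophages, for Icam1 (0.107), Ecscr, an endothelial surface protein, for Icam2 (0.228) and Galnt1 for Pecam1 (0.0823). These distances describe 6 libraries in 2 groups, so they mainly rank genes by a like size of difference.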

How the data were processed

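RNA from mouse tail skin was extracted with TRIzol and sequenced in 6 libraries, 3 per genotype group. Per the submitters' processing notes, reads went through fastp, HISAT2 and HTSeq on mm39, and no versions are given. The annotation, the strand setting and the handling of multiply aligned reads were not given in the sources used here. The authors deposited whole-number counts per gene, not normalized, and FPKM for the same 18180 genes. For all 18180 genes the FPKM could be recomputed from the counts, a fixed gene length and the library total (relative tolerance 1e-06). No value column was left unmapped.

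Tests were run in R 4.3.3 with edgeR 4.0.16: filterByExpr (minimum count 10, minimum total 15) left 15061 genes, scaling was by TMM, and the robust quasi-likelihood fit had group as its only term. P-values were adjusted by Benjamini-Hochberg over all 15061 genes, two-sided, called under 0.05. The steps were tested on simulated counts. Standard errors were derived from the log2 fold change and its F statistic. Library totals of 35855880 to 37043849 make 3 counts equal to 0.0817 to 0.0837 CPM.

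Members, lists and tests were chosen with earlier results of these data known. Of 236 listed names 233 were matched, 1 of them by gene number. Besides the members, the genes named were, per pathway list, up to 2 called genes with the largest rise and 2 with the largest fall at 1 CPM or more in the higher group, per marker list the 2 most abundant, and per member the list gene nearest in profile (the rule allowed 2). Fut7, Itgb2, Itgal, Itgam, Itga4, Tnf, Ptprc, Gp6, Gp9 and Gp1ba were named after their values were seen. So were Ly6g, Camp, Ltf, Ngp, Il4, Il13 and the genomic neighbours F5, Mettl18, Extl2, Icam4, Icam5, Mrpl4 and S1pr2. Some genes that the rule or the gene order would name are not reported here.

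Alternatives were DESeq2 1.42.0, limma-voom (limma 3.58.1), other scaling factors, other count filters, limma on log2(FPKM + 1) and log2(FPKM + 0.1), the replicate number as a block, assumed BCVs in edgeR's likelihood ratio test, an adjusted p of 0.01, muscle and red blood cell genes left out, each library left out in turn, and other denominators for the ratios.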

Additional observations from a re-analysis of the deposited data

How the results depend on the processing

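Sele, Selp and Vcam1 kept direction and call in all 21 alternatives each, with log2 fold changes from 1.42 to 2.18, 1.41 to 2.08 and 1.07 to 1.66. With an assumed BCV of 20%, Icam1 (0.57), Icam2 (0.56) and Pecam1 (0.32) lost their call, and at 40% these (0.57, 0.56 and 0.32) and Selplg (0.97) did. At an adjusted p under 0.01 Icam2 (0.56) was not called, and leaving out each library in turn gave Icam2 0.40 to 0.67. Under the 20% BCV, 3361 genes were called, 1830 higher and 1531 lower, with 4 members, and 32 genes of the lists were higher and 2 lower. At 40%, 774 genes were called, 458 higher and 316 lower, with 3 members, and 11 genes of the lists were higher and 0 lower. The count of genes at least 2-fold higher, 901, was 458 at 40% and 347 by limma on log2(FPKM + 1) with and without the 0.5 FPKM filter.

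Against mural cell markers the log2 ratios were 2.15 for Sele, 2.06 for Selp, 1.07 for Selplg, 1.61 for Vcam1, 0.66 for Icam1, 0.63 for Icam2 and 0.40 for Pecam1. The mural sum mixes 5 genes that rose, such as Rgs5 (log2 fold change 0.20), and 3 that fell, such as Acta2 (-0.62). Against venular markers the log2 ratios were 0.26 for Icam1 and 0.0008 for Pecam1. Against leukocyte markers, a denominator added after the data were seen, that of Selplg was -0.10. Among 59 other named genes, 1144 of 1233 values kept direction and call, 85 lost the call, 71 of these under an assumed BCV, and 3 changed sign: Nr2f2, not called, ranged from -0.071 to 0.041 and Mylpf, not called, from -0.21 to 0.28 over the libraries left out. The cause of these changes was not tested.

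Same-numbered libraries of the 2 groups showed no shared deviation (correlations over 11439 genes from -0.0045 to 0.0083). These values cannot show that the numbers are unpaired, since a small shared deviation could be lost in the spread between libraries. With the replicate number as a block, 9212 genes were called in place of 9244, and all 7 members stayed higher.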
